A study of Mus musculus with 6 samples.

Results

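The genes described are 7 Toll-like receptors (Tlr2, Tlr3, Tlr4, Tlr7, Tlr8, Tlr9 and Tlr13), the co-receptor Cd14 and the adaptor Myd88. They were taken by symbol from the table of read counts per gene, where they are 9 of 44792 rows, and all 9 passed the filter on low counts that left 14370 genes for testing. RNA came from whole hearts of 6 untreated C57BL/6 mice aged 3 months, 1 library per heart. In 3 of the hearts cardiac troponin I, the inhibitory subunit of troponin on the thin filament of heart muscle, carried the R193H substitution, and the other 3 hearts were wild type. The sources used here do not say whether the R193H mice carried 1 or both mutant alleles, or how the allele was made. Hearts of a group are described by the submitters as biological repeats.

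Toll-like receptors are innate immune sensors of microbial molecules and of material from damaged cells. Tlr2 and Tlr4 sit at the cell surface, where Tlr2 binds bacterial lipoproteins and Tlr4 binds lipopolysaccharide that Cd14 hands to it. Tlr3, Tlr7, Tlr8, Tlr9 and Tlr13 sit in endosomes and bind nucleic acids. MyD88 couples all of these receptors except Tlr3 to IRAK kinases, and from there to NF-kappaB and interferon regulatory factors. In the heart these genes are expressed by macrophages and other leukocytes, and some, such as Tlr4 and Tlr3, also by endothelial cells, fibroblasts or cardiomyocytes.

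Promoter sequence is shown for Tlr13 and Myd88, which with Tlr2 were the 3 genes of the group whose levels did not overlap between the genotypes. All 3 had R193H higher, as did 6.02% of all genes tested, and none of the 9 passed an edgeR adjusted p of 0.05. No test linked the sequences to the levels. RefSeq promoter windows on GRCm38.p6 were at hand for 6 of the 9 genes. The stretches printed, 5′ to 3′ on the strand of the gene, lie outside the RefSeq bounds of the gene and hold no exon of GENCODE vM21. None is printed for Tlr2, since 266 of the 300 bases of its window lie inside the bounds of the gene. Capitals mark matches to the PU box GAGGAA in Tlr13 and to an interferon-stimulated response element (GAAA, any 2 bases, GAAA) in Myd88. The stretches lie at chrX:106143025-106143203 (plus strand) and chr9:119340042-119340268 (minus strand).
Tlr13: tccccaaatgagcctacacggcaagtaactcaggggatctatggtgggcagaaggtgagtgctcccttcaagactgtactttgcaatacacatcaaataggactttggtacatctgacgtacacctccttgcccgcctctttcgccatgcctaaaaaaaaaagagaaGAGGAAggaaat
Myd88: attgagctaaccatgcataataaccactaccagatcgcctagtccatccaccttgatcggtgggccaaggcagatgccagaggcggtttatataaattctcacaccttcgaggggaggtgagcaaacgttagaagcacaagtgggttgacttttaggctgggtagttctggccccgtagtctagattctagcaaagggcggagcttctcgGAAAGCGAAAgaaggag

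The motifs were searched on both strands of the whole 300-base windows, with letters chosen after the sequences were seen. The interferon-stimulated element occurred in 1 of the 6 windows, that of Myd88, and in 3.44% of 32851 RefSeq promoter windows of the same length. The NF-kappaB letters (GGG, any 5 bases, CC, with overlapping matches counted) occurred in 2 of the 6, Tlr2 and Tlr3, and in 50.8% of all windows. These are the windows that lie mostly or wholly inside the bounds of their gene (266 of 300 bases for Tlr2 and 300 of 300 for Tlr3). The PU box occurred in 3 of the 6, Tlr8, Tlr9 and Tlr13, and in 28.3% of all windows. The AP-1 letters TGANTCA occurred in 1 of the 6, Tlr9, and in 7.81% of all windows.

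Libraries held 19582600 to 21852210 counts in R193H hearts and 14736067 to 20652534 counts in wild type hearts. Of the 14370 genes tested with the edgeR quasi-likelihood test, 1 passed an adjusted p of 0.05, which is 0.00696% of them, and 824 had an unadjusted p under 0.05, or 5.73%. Tnni3, the gene of cardiac troponin I, was at 3641 to 3900 CPM (counts scaled to library size) in R193H hearts and at 3202 to 3466 CPM in wild type hearts. Counts per gene do not show the substituted base. A marker list of 7 cardiomyocyte genes summed to 37810 to 41040 CPM in R193H hearts and 41530 to 44000 CPM in wild type hearts. R193H replicate 2 had the smallest share of mitochondrially encoded counts, at 30.9%, against 35.2% to 36.8% in the other 5 hearts.

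None of the 9 genes passed the threshold between the genotypes, with edgeR adjusted p from 0.722 for Tlr2 to 0.996 for Tlr3. DESeq2, which called 0.292% of genes, called none of the 9 either. In edgeR 3 of the 9 (Tlr2, Tlr13 and Cd14) had an unadjusted p under 0.05, all with the R193H mean higher. Of all genes tested, 3.22% had such a p with the R193H mean higher. The R193H mean was higher for 7 of the 9, against 49.9% of all genes tested, and for 9 of the 9 under scaling by library totals, where all genes had a median of 0.13. The median log2 fold change, R193H over wild type, was 0.29 for the 9 genes and -0.00036 for all genes tested. Without R193H replicate 1 the median of the 9 was 0.086. The values of the 3 R193H hearts all lay above those of the 3 wild type hearts for 3 of the 9 genes (Tlr2, Tlr13 and Myd88), and for 6.02% of all genes tested. For none of the 9 did all R193H hearts lie below all wild type hearts, as they did for 5.8% of all genes.

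**Figure D1:**
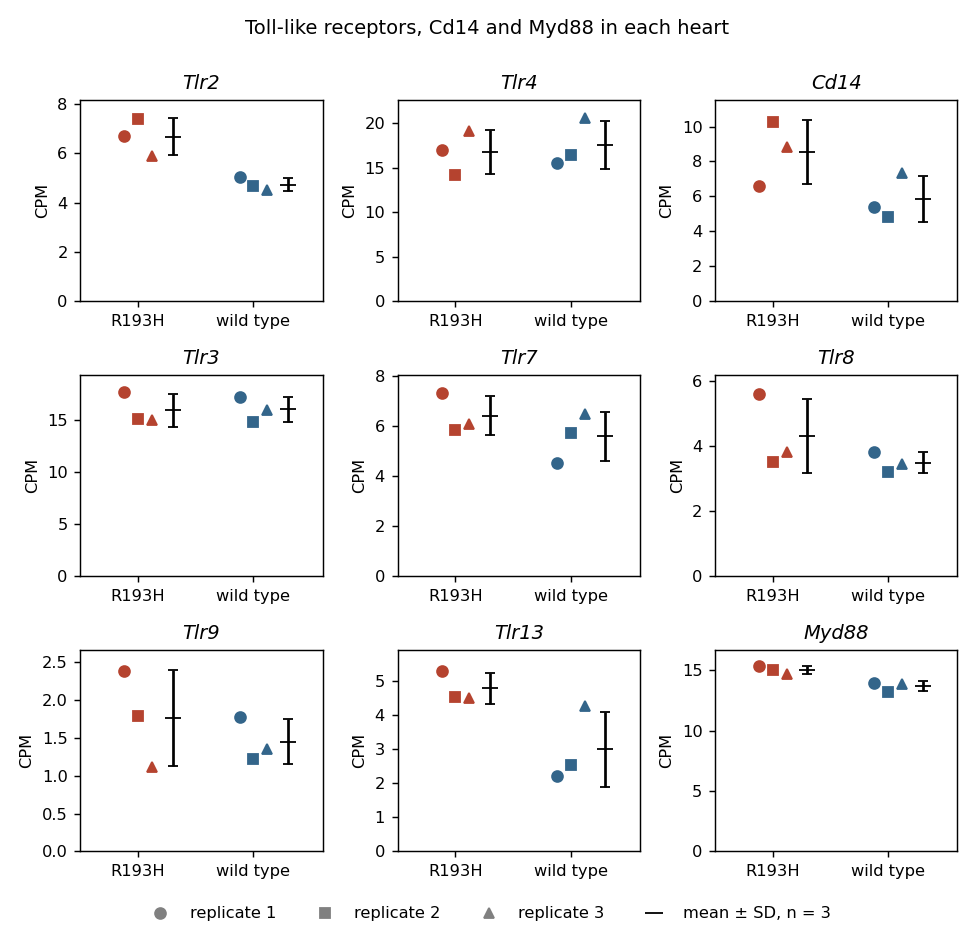
Level of each gene in each heart, in CPM on a linear axis from 0, with R193H hearts in red, wild type hearts in blue, a marker shape per replicate, and the mean ± SD (n = 3) in black. The groups stand apart for Tlr2, Tlr13 and Myd88, and the 2 sets of points overlap for the other 6 genes.

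Levels were compared between genes per kilobase of exon, from the GENCODE vM21 annotation of GRCm38. Myd88 was highest, at 7.42 CPM per kb in R193H hearts and 6.75 CPM per kb in wild type hearts, and its lowest heart (6.52) stood above the highest heart of any other gene of the group. Cd14 followed at 5.21 CPM per kb in R193H hearts and 3.57 in wild type hearts. Tlr3 stood at 3.25 CPM per kb in R193H hearts and 3.27 in wild type hearts, and Tlr4 at 3.06 in R193H hearts and 3.21 in wild type hearts. Tlr2 (2.21 CPM per kb in R193H hearts and 1.57 in wild type hearts) was below all 6 values of Tlr4. Tlr7, Tlr8 and Tlr13 averaged 1.52, 1.13 and 0.959 CPM per kb over the 6 hearts. Tlr9 was lowest, at 0.507 CPM per kb in R193H hearts and 0.416 in wild type hearts. The ranges over the 6 hearts overlapped between neighbours in this order, except between Myd88 and Cd14 and between Tlr4 and Tlr2.

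**Figure D2:**
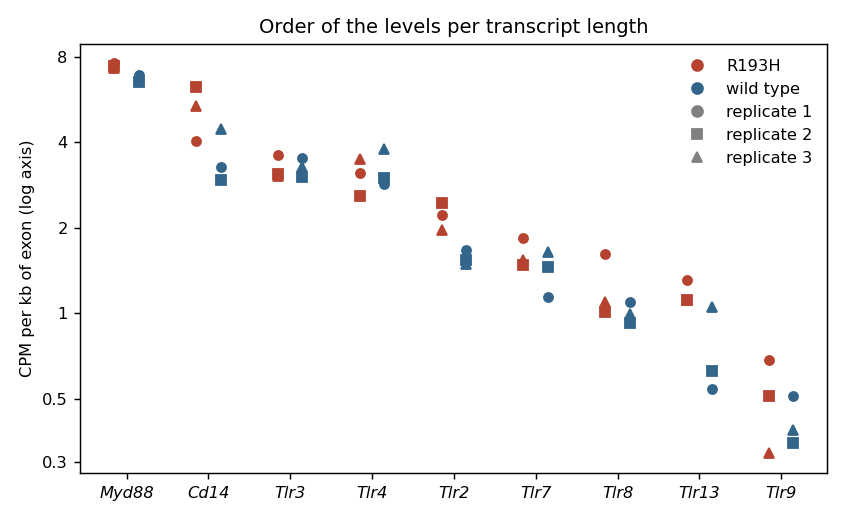
Level of each gene per kilobase of exon in each heart, on a log axis, with R193H hearts (red) left of wild type hearts (blue) and a marker shape per replicate. Myd88 lies above all other genes in every heart, and Tlr9 averages 0.461 CPM per kb over the 6 hearts, the lowest of the group.

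Among the surface receptors, Tlr2 (chromosome 3, 83836272 to 83841824 in RefSeq on GRCm38.p6, as for all gene positions given here) had the smallest unadjusted p of the group. It measured 6.70, 7.41 and 5.91 CPM in R193H replicates 1, 2 and 3, against 5.04, 4.67 and 4.51 CPM in wild type replicates 1, 2 and 3. Each R193H heart was above each wild type heart. Its log2 fold change, R193H over wild type, was 0.50 (SE 0.16, 95% interval 0.15 to 0.84, edgeR unadjusted p = 0.00993, adjusted p = 0.722). The unadjusted p stayed under 0.05 in all 15 alternatives, including each heart left out in turn, and the adjusted p ranged from 0.347 to 0.998 in them. Its counts were 71 to 162 per heart, and in wild type hearts the spread between replicates (5.74% of the mean) was below the mean counting error of 11.3%.

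Tlr4 (chromosome 4, 66827551 to 66846581), the lipopolysaccharide receptor, measured 17.0, 14.1 and 19.1 CPM in R193H replicates 1, 2 and 3, against 15.5, 16.4 and 20.6 CPM in wild type replicates. The highest heart was wild type and the lowest R193H, with the other values interleaved. The log2 fold change was -0.070 (SE 0.15, 95% interval -0.40 to 0.25, edgeR adjusted p = 0.962), turning to 0.066 when wild type replicate 3 was left out and to 0.039 when R193H replicate 2 was. Ly96, which encodes the MD-2 subunit that Tlr4 needs to bind lipopolysaccharide, stood at a log2 fold change of -0.20 (SE 0.39).

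Cd14 (chromosome 18, 36725064 to 36726815) encodes the anchored protein that passes lipopolysaccharide to Tlr4 and also serves other Toll-like receptors. It measured 6.61, 10.2 and 8.80 CPM in R193H replicates 1, 2 and 3, against 5.39, 4.85 and 7.31 CPM in wild type replicates. The groups overlapped because R193H replicate 1 lay below wild type replicate 3. On the log2 scale the fold change was 0.54 (SE 0.21, 95% interval 0.074 to 1.01, edgeR unadjusted p = 0.0273, adjusted p = 0.794). Leaving out R193H replicate 2 gave 0.39, and leaving out wild type replicate 3 gave 0.74. The unadjusted p of Cd14 missed 0.05 in 4 of the 15 alternatives, when R193H replicate 2 (0.0924), R193H replicate 3 (0.0554), wild type replicate 1 (0.0834) or wild type replicate 2 (0.105) was left out. Lbp, the serum protein that loads lipopolysaccharide onto Cd14, measured 10.6, 12.2 and 11.0 CPM in R193H hearts against 6.67, 8.55 and 7.81 CPM in wild type hearts (log2 fold change 0.55, SE 0.14, edgeR adjusted p = 0.650). Its groups did not overlap, but it was named for its small p, which favours that.

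Among the endosomal receptors, Tlr13 (chromosome X, 106143275 to 106160493) had the largest fold change of the 9 genes. In mice it senses bacterial ribosomal RNA. It measured 5.31, 4.53 and 4.52 CPM in R193H replicates 1, 2 and 3, against 2.20, 2.55 and 4.26 CPM in wild type replicates. All R193H hearts were above all wild type hearts, with a narrow gap to wild type replicate 3, which lay nearer to the R193H hearts than to the other wild type hearts. The log2 fold change was 0.65 (SE 0.25, 95% interval 0.095 to 1.21, edgeR unadjusted p = 0.0263, adjusted p = 0.794). That estimate became 1.01 when wild type replicate 3 was left out and 0.48 when wild type replicate 1 was. The unadjusted p missed 0.05 when R193H replicate 1, wild type replicate 1 or wild type replicate 2 was left out.

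Tlr7, a sensor of single-stranded RNA, and Tlr8, known for that role in humans, lie next to each other on chromosome X (167303380 to 167330574 and 167241123 to 167264329). Tlr7 measured 7.33, 5.86 and 6.10 CPM in R193H replicates 1, 2 and 3, against 4.54, 5.76 and 6.51 CPM in wild type replicates, with overlapping groups. Its log2 fold change was 0.19 (SE 0.18, 95% interval -0.21 to 0.59, edgeR adjusted p = 0.908), or 0.086 when R193H replicate 1 was left out and 0.065 when wild type replicate 1 was. Tlr8 measured 5.62, 3.52 and 3.82 CPM in R193H replicates, against 3.83, 3.21 and 3.46 CPM in wild type replicates. R193H replicate 1 stood above the other 5 hearts, which lay between 3.21 and 3.83 CPM. The log2 fold change of Tlr8 was 0.31 (SE 0.22, edgeR adjusted p = 0.900), and 0.070 without R193H replicate 1.

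Tlr3 (chromosome 8, 45395665 to 45411075) binds double-stranded RNA and signals through Ticam1 in place of Myd88. It measured 17.7, 15.1 and 14.9 CPM in R193H replicates 1, 2 and 3, against 17.2, 14.8 and 16.0 CPM in wild type replicates. The groups overlapped fully, and the log2 fold change was -0.0064 (SE 0.11, 95% interval -0.26 to 0.25, edgeR adjusted p = 0.996). Its adaptor Ticam1 stood at -0.020 (SE 0.10). An antisense gene, Gm45542, covers 4.9% of the annotated exon bases of Tlr3 and the counting is not stated to use strand, so reads of the 2 may be mixed.

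Tlr9 (chromosome 9, 106222598 to 106226876), the sensor of unmethylated CpG DNA, had the fewest reads, with 20 to 53 counts per heart. It measured 2.38, 1.78 and 1.12 CPM in R193H replicates 1, 2 and 3, against 1.77, 1.21 and 1.35 CPM in wild type replicates. R193H hearts held both the highest and the lowest value. Its log2 fold change was 0.29 (SE 0.34, 95% interval -0.47 to 1.05, edgeR adjusted p = 0.923), or 0.012 when R193H replicate 1 was left out and 0.54 when R193H replicate 3 was. The mean counting error was 16.7% in R193H hearts and 20.5% in wild type hearts. B cells are known to express Tlr9. The summed level of 4 B cell markers was 1.89, 3.57 and 2.79 CPM in R193H replicates 1, 2 and 3, against 11.1, 1.64 and 3.86 CPM in wild type replicates, and its part in the Tlr9 values was not tested.

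Myd88 (chromosome 9, 119335934 to 119340018) varied least between hearts. It measured 15.3, 15.1 and 14.7 CPM in R193H replicates 1, 2 and 3, against 14.0, 13.2 and 13.9 CPM in wild type replicates. The groups did not overlap, and their means differed by a ratio of 1.10. For Myd88 the log2 fold change was 0.14 (SE 0.0995, 95% interval -0.087 to 0.36, edgeR unadjusted p = 0.205, adjusted p = 0.900). The replicates spread by 2.06% of the mean in R193H hearts and 3.03% in wild type hearts, less than the mean counting errors of 5.52% and 6.64%. Acaa1a, a peroxisomal thiolase gene on the opposite strand, covers 14.3% of the annotated exon bases of Myd88, so its reads may be shared. Acaa1a measured 40.8 ± 2.50 CPM in R193H hearts and 38.5 ± 3.25 CPM in wild type hearts (SD, n = 3 each; log2 fold change 0.086, SE 0.091).

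**Figure D3:**
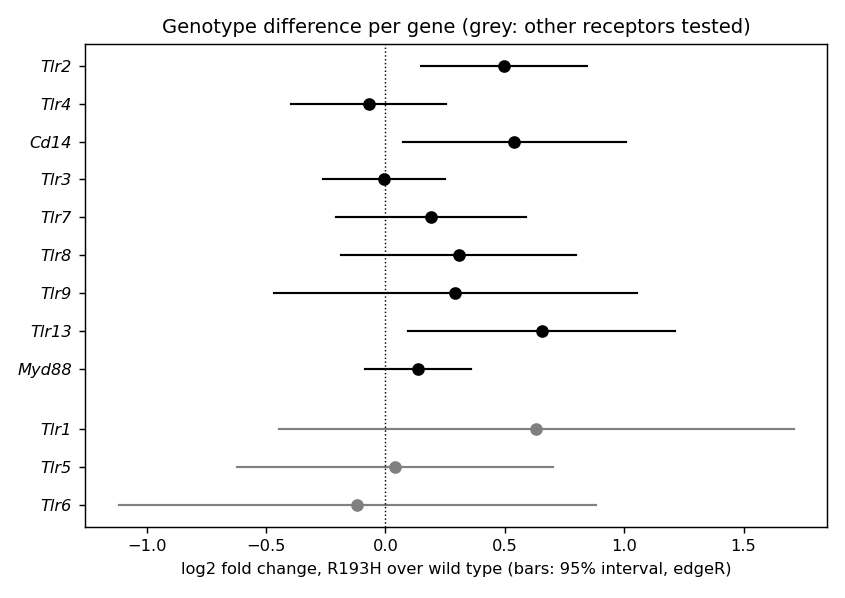
Log2 fold change, R193H over wild type, with its 95% interval from edgeR, for the 9 genes (black) and the 3 other Toll-like receptors that were tested (grey). The intervals of Tlr2, Cd14 and Tlr13 lie above 0 before adjustment over all genes, and those of the other 9 genes plotted span 0.

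Of the 9 genes, 6 had their highest value in R193H replicate 1, 2 in R193H replicate 2 and 1 (Tlr4) in wild type replicate 3. The lowest value fell in a wild type heart for 7 of the 9. The means of the 9 centred log2 CPM profiles were 0.26, 0.11 and 0.043 in R193H replicates 1, 2 and 3, against -0.17, -0.24 and -0.0022 in wild type replicates 1, 2 and 3. The order of the R193H hearts in that mean was held by 4 of the 9 genes (Tlr3, Tlr9, Tlr13 and Myd88). The genes whose centred profiles lay closest to that mean, by root mean square difference over the 6 hearts among 9827 genes with a mean of at least 5 CPM, were Mrpl35 (0.0407), Sema7a (0.0422), 1600012H06Rik (0.0439), Trp53inp1 (0.0465) and Arhgap27 (0.0518).

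Macrophage marker levels ran the same way as most of these genes, and their part in the receptor levels was not tested. Of 12 markers, 11 had a higher mean in R193H hearts, against 49.9% of all genes tested. None of the 12 passed the threshold, and their median log2 fold change was 0.40. Fcgr1, an IgG receptor gene, stood at 1.09 (SE 0.23), and Mertk, a receptor for engulfing dead cells, at -0.070. The summed level of the 12 markers was 400.7, 418 and 303 CPM in R193H replicates 1, 2 and 3, against 257, 260.5 and 299 CPM in wild type replicates 1, 2 and 3. R193H replicate 3 was thus close to wild type replicate 3. In whole tissue, more cells of a type and more RNA per cell cannot be told apart. The marker Adgre1 was read from the table under its older symbol Emr1, and no marker of the list was at 0 in all hearts.

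Each gene was also set against that sum, as a description with no test. The complement genes C1qa, C1qb and C1qc made up 63.3% of the sum in R193H hearts and 57.5% in wild type hearts, with a ratio of means of 1.51, and the other 9 markers had a ratio of 1.18. The result therefore depended on which markers were summed. Tlr2 stood at 1.67%, 1.77% and 1.95% of the sum of 12 markers in R193H replicates 1, 2 and 3, against 1.96%, 1.79% and 1.51% in wild type replicates, with overlapping groups and a ratio of means of 1.03. Against the 9 markers without C1q, an alternative chosen after seeing the data, Tlr2 stood at 4.88%, 4.68% and 5.11% in R193H replicates, against 4.54%, 4.39% and 3.46% in wild type replicates. There every R193H heart was above every wild type heart, and the ratio was 1.18. The ratio of its CPM means was 1.41.

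Cd14 had a ratio of means of 1.09 against 12 markers, 1.26 against 9 and 1.46 in CPM, and Tlr13 had 1.2, 1.39 and 1.59. The groups of both overlapped on either marker scale. The other genes had ratios below 1 against 12 markers: Tlr4 0.724, Tlr3 0.732, Myd88 0.811, Tlr7 0.852, Tlr9 0.865 and Tlr8 0.904. Against 9 markers these were 0.834, 0.847, 0.936, 0.986, 1.01 and 1.05. Tlr3 had lower R193H values without overlap against 12 markers (4.42%, 3.61% and 4.94% in R193H hearts, 6.71%, 5.68% and 5.34% in wild type hearts), as did 36.4% of all genes tested. Its groups overlapped against the 9 markers, on which scale 9.3% of all genes tested had all R193H hearts lower. Groups without overlap and with R193H higher were found for 0.501% of all genes tested against 12 markers and for 1.18% against 9.

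**Figure D4:**
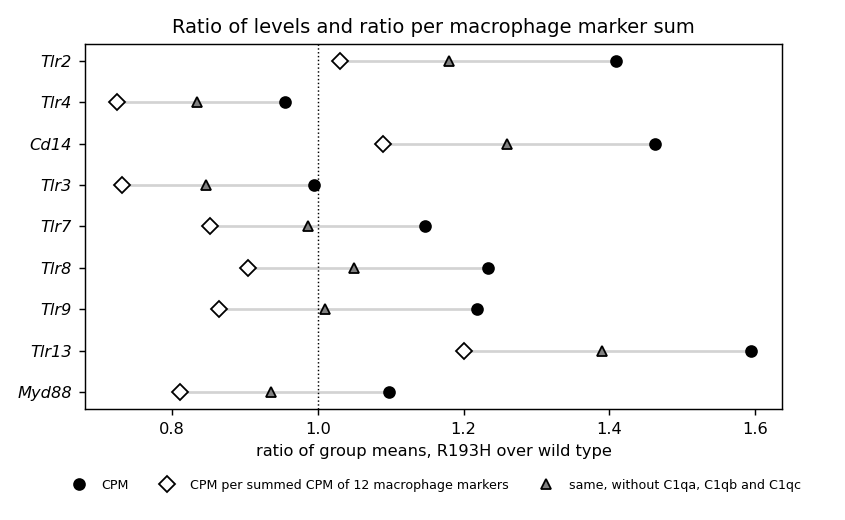
Ratio of the group means, R193H over wild type, of each gene in CPM (filled circles), per summed CPM of 12 macrophage markers (open diamonds) and per sum of the 9 markers other than C1qa, C1qb and C1qc (grey triangles), on a linear axis with a dotted line at 1. Tlr2 is at 1.41 in CPM, 1.03 against 12 markers and 1.18 against 9, and every gene lies higher against the 9 markers than against the 12.

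Other leukocyte markers differed in direction. All 5 monocyte markers tested had higher R193H means (median log2 fold change 0.79), against 49.9% of all genes tested. Chil3, also on that list, had 0 to 15 counts per heart and was too low to test. Its R193H mean was lower, at 0.215 CPM against 0.472 CPM in wild type hearts. Sums of all 6 monocyte markers were 20.1, 25.0 and 10.8 CPM in R193H replicates 1, 2 and 3 against 12.4, 10.1 and 9.37 CPM in wild type replicates. All 4 dendritic cell markers tested had higher R193H means (median 0.94), against 49.9% of all genes tested. Of these, Xcr1 passed the filter on low counts through R193H hearts alone (10 to 23 counts there, 5 to 8 in wild type hearts). Zbtb46 (0 to 2 counts per heart) and Siglech (5 to 11) were too low to test. Sums of all 6 dendritic cell markers were 4.19 to 7.01 CPM in R193H hearts against 2.50 to 4.0 CPM in wild type hearts. All 3 neutrophil markers tested had lower R193H means (median -1.33). Neutrophils also express Tlr2 and Cd14, and their summed markers were 6.16, 4.80 and 4.80 CPM in R193H replicates against 22.1, 2.24 and 11.2 CPM in wild type replicates. The T cell markers (4 of 4 tested) had higher R193H means, with a median of 0.87. None of these markers passed the threshold, and their part in the levels of the receptors was not tested. Medians were 0.099 for 7 endothelial, 0.26 for 6 fibroblast, 0.086 for 6 mural and -0.13 for 7 cardiomyocyte markers, and those sums overlapped between the groups except for cardiomyocyte markers, where all R193H hearts were lower. Red cell markers had lower R193H means for 5 of 5 (median -1.95), and their sums were 476, 630 and 566 CPM in R193H replicates 1, 2 and 3 against 3094, 257 and 2973 CPM in wild type replicates.

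The other Toll-like receptors were low. Tlr1, which pairs with Tlr2, measured 2.47, 2.79 and 0.838 CPM in R193H replicates 1, 2 and 3, against 1.99, 0.849 and 1.15 CPM in wild type replicates (log2 fold change 0.63, SE 0.48). Tlr6, the other partner of Tlr2, measured 0.674, 2.65 and 2.24 CPM in R193H replicates, against 2.20, 1.58 and 2.25 CPM in wild type replicates (log2 fold change -0.12, SE 0.44). Neither partner separated the groups as Tlr2 did, and no test compared them. Tlr5, the flagellin receptor, stood at 0.040 (SE 0.30). Tlr11 and Tlr12 had 2 to 12 and 1 to 16 counts per heart and were not tested.

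Partners and chaperones of the receptors had higher R193H means for 7 of 8 genes, with 0 of 8 past the threshold and a median log2 fold change of 0.26. Beside this list and those below, 49.9% of all genes tested had a higher R193H mean. Most genes named from these lists are those of smallest p, a choice that favours groups without overlap. Unc93b1, which carries nucleic acid-sensing receptors to endosomes, measured 33.8, 34.5 and 28.5 CPM in R193H replicates 1, 2 and 3, against 23.2, 24.4 and 26.4 CPM in wild type replicates (log2 fold change 0.38, SE 0.10, edgeR adjusted p = 0.722). Cd180, a Toll-like receptor relative that restrains lipopolysaccharide responses, stood at 1.01 (SE 0.36) on 14 to 74 counts per heart. Its partner Ly86 stood at 0.60 (SE 0.21). Groups did not overlap, with R193H higher, for 4 of the 8 genes (Unc93b1, Cd180, Ly86 and Lbp), and for 6.02% of all genes tested. Hsp90b1 and Cnpy3, the chaperones that fold Toll-like receptors, stood at 0.14 (SE 0.11) and 0.087 (SE 0.11).

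Adaptors other than Myd88 split, with higher R193H means for 2 of 4 tested and none past the threshold. Tirap, which bridges Tlr2 and Tlr4 to Myd88, stood at 0.11 (SE 0.14), and Ticam2, which bridges Tlr4 to Ticam1, at -0.12 (SE 0.28). Pik3ap1, the B cell and macrophage adaptor that links Toll-like receptors to PI3-kinase, measured 9.04, 9.47 and 7.87 CPM in R193H replicates 1, 2 and 3, against 4.33, 5.76 and 4.31 CPM in wild type replicates. Its groups did not overlap (log2 fold change 0.87, SE 0.17, edgeR adjusted p = 0.526).

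The kinases and ubiquitin ligases that relay the signal had a median log2 fold change of -0.013 over 13 tested genes, 6 with higher and 7 with lower R193H means, and none passed the threshold. Scaled by library totals, where the median of all genes was 0.13, the median of the relay was 0.11. The first by p was Irak2, a kinase of the Myd88 complex, at 0.32 (SE 0.15), with Map3k7, which encodes the kinase TAK1, at -0.078 (SE 0.085). Tab1, a subunit of the TAK1 complex, stood at 0.17 (SE 0.11) and the ubiquitin ligase Traf3 at -0.091 (SE 0.093). Transcription factors had higher R193H means for 7 of 8, against 49.9% of all genes tested, and none passed the threshold. Their median was 0.23, or 0.067 when R193H replicate 2 was left out and 0.12 with the filter of at least 1 CPM in 3 hearts. Among the 7, the NF-kappaB subunit genes Nfkb1 and Rela stood at 5.4e-05 (SE 0.079) and 0.073 (SE 0.083). Nfkb2 stood at 0.77 (SE 0.71) on 1 to 30 counts per heart. Irf5, which acts downstream of Myd88, measured 8.95, 7.69 and 7.22 CPM in R193H replicates 1, 2 and 3, against 6.17, 5.03 and 4.91 CPM in wild type replicates (log2 fold change 0.57, SE 0.16, edgeR adjusted p = 0.722). Irf7, the partner factor of Tlr7 and Tlr9 signalling, stood at 0.56 (SE 0.18), Relb at 0.34 (SE 0.13) and Rel at -0.29 (SE 0.18). None of Irf5, Irf7, Relb and Rel had overlapping groups, but they were named for their small p, which favours that. Of all genes tested, 6.02% had such groups with R193H higher and 5.8% with R193H lower. For Rel, all R193H hearts were lower.

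Inhibitors of the pathway had higher R193H means for 6 of 10, with a median log2 fold change of 0.11 (0.034 when R193H replicate 2 was left out) and none past the threshold. Tnip1, a partner of the deubiquitinase A20, measured 46.6, 44.5 and 48.2 CPM in R193H replicates 1, 2 and 3, against 40.5, 39.0 and 38.1 CPM in wild type replicates (log2 fold change 0.24, SE 0.076, edgeR adjusted p = 0.722). Tnfaip3, which encodes A20, stood at 0.46 (SE 0.16) and Irak3, a kinase-dead brake on the Myd88 complex, at 0.26 (SE 0.12). Groups did not overlap, with R193H higher, for 4 of the 10 inhibitors (Tnip1, Tnfaip3, Irak3 and Sigirr), and for 6.02% of all genes tested. Tnip3 stood at -0.74 (SE 0.31), with overlapping groups. Receptors of the interleukin-1 family that use Myd88 had higher R193H means for 3 of 4, all with overlapping groups and none past the threshold, and the interleukin-1 receptor gene Il1r1 stood at 0.16 (SE 0.11). Its co-receptor Il1rap stood at -0.17 (SE 0.15), and the interleukin-18 receptor chains Il18r1 and Il18rap at 0.76 (SE 0.51) and 0.83 (SE 0.56).

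Proteases that cut endosomal receptors into their active form had higher R193H means for 4 of 5 and a median log2 fold change of 0.037, or 0.21 when R193H replicate 3 was left out, with none past the threshold. Ctss, the cathepsin of antigen-presenting cells, measured 12.0, 10.8 and 8.57 CPM in R193H replicates 1, 2 and 3, against 6.32, 5.33 and 5.51 CPM in wild type replicates (log2 fold change 0.87, SE 0.16, edgeR adjusted p = 0.526). Ctsb and Ctsl, expressed more widely, stood at 0.012 (SE 0.081) and 0.037 (SE 0.079), and the lysosomal protease Lgmn at 0.24 (SE 0.13). Of the 5 proteases, Ctss was the 1 whose groups did not overlap, with R193H higher, as for 6.02% of all genes tested. It was also first of the list by p, which favours that.

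Of 20 genes known to be induced through Toll-like receptors, 11 were tested, and none passed the threshold. All 11 had higher R193H means, against 49.9% of all genes tested, with a median log2 fold change of 0.50. Ccl5 passed the filter on low counts through R193H hearts alone (11 to 58 counts there, 3 to 8 in wild type hearts). Its direction was thus tied to the filter, and Cxcl10 had 5 to 11 counts in wild type hearts. The median of the tested targets was 0.30 when R193H replicate 2 was left out, and 0.25 with the stricter filter of at least 1 CPM in 3 hearts. Icam1, an adhesion molecule for leukocytes, had the smallest p, with 25.0, 25.4 and 20.1 CPM in R193H replicates 1, 2 and 3, against 15.5, 16.9 and 16.2 CPM in wild type replicates (log2 fold change 0.54, SE 0.11, edgeR adjusted p = 0.526). Its groups did not overlap. Vcam1, also a leukocyte adhesion molecule, stood at 0.29 (SE 0.12), with overlapping groups. Several of these genes respond to interferon or to other receptors too. Cxcl10 measured 3.69, 1.97 and 0.792 CPM in R193H replicates 1, 2 and 3, against 0.355, 0.667 and 0.501 CPM in wild type replicates, and Ccl5 measured 2.61, 1.05 and 0.512 CPM in R193H replicates against 0.213, 0.485 and 0.401 CPM in wild type replicates. In both chemokine genes the groups did not overlap, and R193H replicate 3 was near the wild type hearts. The log2 fold changes were 2.06 (SE 0.57) for Cxcl10 and 1.89 (SE 0.63) for Ccl5. Il1b and Nfkbiz, both direct NF-kappaB targets, stood at 0.17 (SE 0.54) and 0.19 (SE 0.16). The other 9 genes, among them Tnf with 3 to 23 counts per heart and Il6 with 0 to 6, were too low to test.

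**Figure D5:**
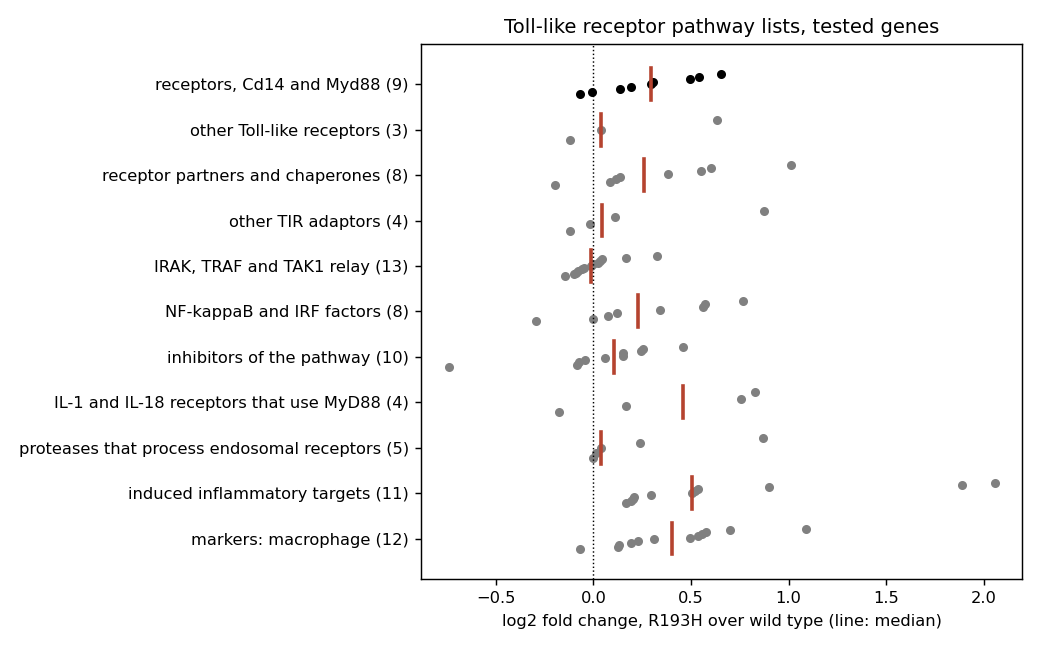
Log2 fold change, R193H over wild type, of each tested gene of the pathway lists and of the macrophage markers, with the number tested in brackets and a red line at the median. The medians are 0.29 for the receptors with Cd14 and Myd88, 0.50 for induced inflammatory targets (0.30 without R193H replicate 2), 0.40 for macrophage markers and -0.013 for the kinase relay.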

How the data were processed

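RNA from 6 hearts was sequenced. The values are raw gene counts as the authors deposited them, in 1 table. Reads were aligned to GRCm38 with HISAT2 2.0.4, per the submitters' processing notes. No source used here names the counting program, its use of strand or its handling of reads with several matches. Columns were matched to hearts by sample title, and groups came from the genotype label. Between any 2 hearts, counts differed beyond sampling noise (chi-square per degree of freedom of 12.2 or more).

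The main test was edgeR 4.0.16 in R 4.3.3 (filterByExpr, TMM scaling, robust quasi-likelihood, Benjamini-Hochberg over 14370 genes, threshold 0.05). CPM uses TMM-scaled totals, and 3 counts, the most a count of 0 allows, equal 0.135 to 0.213 CPM (counting error only). The SE is the size of the log2 fold change divided by the root of F. The fit was tested on simulated counts. Alternatives were other scalings and filters, DESeq2 1.42.0, limma-voom (limma 3.58.1) and each heart left out.

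The genes and lists were chosen with earlier results of these data known. Genes were named by rule: all 9, the other receptors, up to 4 per pathway list by p, and the 5 of closest profile. Naming by p favours genes whose groups do not overlap. Ly96, Hsp90b1, Cnpy3, Nfkb1, Nfkb2, Rela, Sigirr, Il1b, Nfkbiz, Tnf, Il6, Acaa1a and Tnni3 were named outside it, after their values were seen. So were Chil3 and the macrophage and dendritic cell markers.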

Additional observations from a re-analysis of the deposited data

How the results depend on the processing

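None of the 9 genes passed the threshold under any of the 15 alternatives run. Tlr2, Tlr13, Cd14, Tlr7, Tlr8, Tlr9 and Myd88 kept a positive log2 fold change in all 15. Tlr3 and Tlr4, near 0, turned positive under library totals (0.119 and 0.049), a scaling that moved the median of all genes to 0.13, so relative to it both stayed at or below 0. With single hearts left out, Tlr3 ranged from -0.091 to 0.047 and Tlr4 from -0.17 to 0.066. The median of the 9 was 0.42 under library totals and 0.086 to 0.39 with hearts left out. The count of all genes past the threshold was 1, with 38 without a filter on low counts, 42 in DESeq2, 0 with mitochondrial genes left out, which removes the 1 gene called, and 3 to 21 with hearts left out. The causes of the other changes were not tested. Against the macrophage marker sum, leaving out C1qa, C1qb and C1qc, chosen after seeing the data, moved the Tlr2 ratio to 1.18, against 1.03 with all 12 markers. No paired analysis was possible because the labels give no pairing of hearts. The replicate numbers used here count hearts within a genotype and match none across genotypes. Depth limits Tlr9 most, with 20 counts in 1 heart.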
